A study of Homo sapiens with 12 samples.

Results

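ATF4 and 9 genes known to respond to it, *ATF3*, *ATF5*, *DDIT3*, *CEBPB*, *ASNS*, *TRIB3*, *CHAC1*, *SESN2* and *DDIT4*, were followed through the 12 RNA-seq libraries of U251 cells, an established human glioblastoma line. The 10 genes were taken by name from the deposited table, and each matched 1 of its 45416 genes. All 10 passed the filter on low reads, which left 17982 genes for testing. With siPDL1-1 in unstimulated cells all 10 genes were lower than with the control siRNA, beside 8399 of all 17982 genes tested. By the test (FDR under 0.01) 8 of them fell, beside 8.99% of all genes tested. With siPDL1-2 the same 10 genes split. By the same test *CHAC1* and *SESN2* were higher, 2 of 10 beside 16.5% of all genes tested, which is near that share. *DDIT4*, *ASNS*, *ATF4* and *ATF3* were lower, 4 of 10 beside 11.9%. None of the 10 passed the FDR with a difference over 1.5-fold, where 6.17% of all genes tested did. IFNγ lowered 7 of the 10 in control cells by that test, beside 9.34% of all genes tested, *TRIB3* by 1.06 on the log2 scale. It raised *ATF3* with each siRNA, where 17.9%, 14.4% and 9.57% of all genes tested rose with siNC, siPDL1-1 and siPDL1-2.

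ATF4 is a basic leucine zipper (bZIP) transcription factor at the end of the integrated stress response. In that response the kinases PERK, GCN2, PKR and HRI phosphorylate the translation factor eIF2α, which slows protein synthesis in general and favours translation of the ATF4 mRNA, so that the ATF4 transcript and the ATF4 protein need not move together. ATF4 forms dimers with other bZIP proteins, C/EBP factors among them, and binds C/EBP-ATF response elements in genes of amino acid supply, redox balance, growth control and cell death. RNA-seq reads only the transcripts. Protein levels and eIF2α phosphorylation were not measured here.

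The cells were wild type by their label and carried either a control siRNA (siNC) or an siRNA against PD-L1 (siPDL1-1 or siPDL1-2), and they were left unstimulated or received IFNγ at 100 U/ml for 24 h, begun 48 h after transfection. Each of the 6 conditions had 2 libraries, which the methods describe as coming from 2 independent experiments. All cells were from 1 line, and the siRNA was introduced transiently. The libraries held between 17101069 and 55657393 reads on genes, and a member gene had at least 255 reads in every library. *CD274*, which encodes PD-L1, was measured at 4.76 ± 0.217 CPM (mean ± SD, n = 2) with siNC, 2.70 ± 0.0436 with siPDL1-1 and 3.51 ± 0.0860 with siPDL1-2 in unstimulated cells. After IFNγ it stood at 73.6 ± 3.43, 63.8 ± 4.04 and 36.3 ± 1.76 CPM, and there the difference of siPDL1-1 from siNC did not pass the threshold (FDR = 0.0498). Of 8 glioma markers, *VIM*, *SOX2*, *NES*, *CD44* and *EGFR* were well expressed, while the astrocyte marker *GFAP* lay between 1.92 and 7.25 CPM, *S100B* between 2.40 and 5.92 CPM and *OLIG2* did not exceed 0.359 CPM. The 7 markers of blood, epithelial, endothelial, neuronal and myelin-forming cells stayed at or below 0.671 CPM.

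Several of the 10 genes carry the letters of a C/EBP-ATF response element near a start, and these are shown because the letters are what ATF4 dimers are known to bind. Windows of 1000 bases before each RefSeq start (GRCh38.p14) were searched on both strands for TGATGNAA, where N is any base, and no other motif was searched. RefSeq starts were found for all 10 genes, 19 in all. At least 1 match was present for 7 of the 10 genes, beside 15.1% of all 27305 genes. By windows it was present in 11 of the 19, beside 13.0% of all 35116 windows. Windows of the same gene can overlap. Each line gives 30 bases 5′ to 3′ on the strand that reads the motif, with the 8 matching letters in capitals.
ATF3: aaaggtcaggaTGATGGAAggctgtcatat
DDIT3: gggggcggggaTGATGCAAtgtttggcaac
ASNS: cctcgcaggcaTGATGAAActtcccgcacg
TRIB3: cccggtccgggTGATGCAAaccggagctaa
CHAC1: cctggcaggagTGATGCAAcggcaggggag
SESN2: ttagggttgcgTGATGAAAagggacttcac

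Positions are on GRCh38, and the features named are those of the GENCODE annotation. The *ATF3* stretch is at chr1:212565205-212565234 on the plus strand, 191 bases before the nearest *ATF3* start and outside annotated genes. The *DDIT3* stretch is at chr12:57520802-57520831 on the plus strand, opposite to the gene, 303 bases before the nearest start, in an intron of longer *DDIT3* models and within the *MBD6* gene region. In *ASNS* the stretch lies at chr7:97872458-97872487 on the minus strand, the strand of the gene, 68 bases before a start and in an untranslated exon of another *ASNS* model, where a gene with no symbol also overlaps. *TRIB3* holds 3 copies of the same 30 bases, spaced by 33 bases, of which the one nearest to the start is at chr20:380947-380976 on the minus strand, 337 bases before it, in an untranslated exon of longer *TRIB3* models. The *CHAC1* stretch at chr15:40953251-40953280 is on the minus strand, 209 bases before the start and in an untranslated exon of a longer model. The *SESN2* stretch at chr1:28259211-28259240 is also on the minus strand, 296 bases before the start and outside annotated genes. A *DDIT4* match was 946 bases before its start, and a further *ASNS* match 886 bases before. *ATF4*, *ATF5* and *CEBPB* had no match in these windows, which says only that these letters are not there.

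The position of each gene is given as in the deposited table (GRCh38). All values are the authors' normalized CPM, read counts scaled to the size of the library, in which 1 read was worth between 0.0187 and 0.0586 CPM. The transcription factors come first. *ATF4* (chr22:39519672-39522683, plus strand) itself stood at 495 and 500.2 CPM in the siNC libraries, 373 and 370.3 with siPDL1-1 and 455 and 451 with siPDL1-2 in unstimulated cells. IFNγ-treated cells had 431 and 422 CPM with siNC, 364 and 357 with siPDL1-1 and 400.2 and 425 with siPDL1-2. The siPDL1-1 libraries were the lowest in either state, below every library of the other siRNAs. *ATF3* (chr1:212565334-212620777, plus strand), a stress-induced bZIP factor of the same family, was at 15.1 and 15.5 CPM with siNC, 10.4 and 9.53 with siPDL1-1 and 12.0 and 12.9 with siPDL1-2 before stimulation. With IFNγ it reached 26.8 and 24.2, 32.0 and 30.5 and 19.2 and 18.5 CPM in that order. Thus siPDL1-1 cells had the lowest *ATF3* without IFNγ and the highest with it, and no stimulated library overlapped an unstimulated one.

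*ATF5* (chr19:49928702-49933935, plus strand), a bZIP factor induced with ATF4 when proteins misfold, was at 16.3 and 15.1 CPM (siNC), 12.8 and 13.3 (siPDL1-1) and 18.7 and 16.4 (siPDL1-2) in unstimulated cells. The stimulated libraries had 10.2 and 10.5, 12.0 and 12.7 and 14.95 and 15.11 CPM. The lowest level was that of stimulated control cells. *DDIT3* (chr12:57516588-57521737, minus strand), which encodes CHOP, a factor linked to cell death under prolonged stress, was found at 52.2 and 52.4 CPM with siNC, 32.4 and 32.0 with siPDL1-1 and 58.5 and 57.1 with siPDL1-2 before IFNγ. Its stimulated values were 41.0 and 40.2, 29.8 and 29.1 and 38.6 and 40.3 CPM. All 4 siPDL1-1 libraries were below the other 8. *CEBPB* (chr20:50190830-50192668, plus strand), a C/EBP factor that pairs with ATF4, had 57.8 and 71.5 CPM in unstimulated siNC cells, 53.5 and 48.7 with siPDL1-1 and 49.1 and 49.9 with siPDL1-2. Under IFNγ it had 78.9 and 62.3, 73.9 and 77.7 and 96.1 and 95.7 CPM. The siNC libraries of *CEBPB* lay far apart, and their stimulated and unstimulated values overlapped.

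Among the targets that are not transcription factors, *ASNS* (chr7:97851677-97872542, minus strand), asparagine synthetase, stood at 227 and 219 CPM with siNC, 150.1 and 152 with siPDL1-1 and 185 and 185 with siPDL1-2 in unstimulated cells. Stimulated cells had 178 and 184, 138 and 131 and 165 and 167 CPM. As for *ATF4*, siPDL1-1 gave the lowest libraries within each state. *TRIB3* (chr20:362835-397559, plus strand), a pseudokinase that binds AKT and holds ATF4 activity back, was at 205 and 210.4 CPM (siNC), 152 and 153 (siPDL1-1) and 224 and 221 (siPDL1-2). IFNγ brought these to 108 and 91.8, 118 and 104 and 159 and 170.2 CPM. Every stimulated library was below the unstimulated libraries of the same siRNA, and siPDL1-2 cells had the highest level under IFNγ. *CHAC1* (chr15:40952962-40956512, plus strand), a glutathione-degrading enzyme, showed 42.7 and 43.8 CPM with siNC, 33.3 and 30.5 with siPDL1-1 and 60.8 and 60.4 with siPDL1-2. The stimulated values were 27.5 and 23.2, 27.7 and 23.2 and 36.4 and 44.9 CPM, so that siNC and siPDL1-1 overlapped there.

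*SESN2* (chr1:28259518-28282491, plus strand), sestrin 2, a leucine-binding inhibitor of mTORC1, was measured at 55.2 and 60.7 CPM with siNC, 44.9 and 49.1 with siPDL1-1 and 73.2 and 75.1 with siPDL1-2 without IFNγ. In stimulated cells the values were 39.8 and 36.0, 43.3 and 37.9 and 47.9 and 47.9 CPM. Its highest libraries, like those of *CHAC1*, were the unstimulated siPDL1-2 cells. *DDIT4* (chr10:72273924-72276036, plus strand), which encodes the mTORC1 inhibitor REDD1, had 1049 and 1106 CPM with siNC, 840.2 and 826 with siPDL1-1 and 774 and 756 with siPDL1-2. IFNγ-treated libraries gave 1061 and 989, 873 and 815 and 870.4 and 932 CPM. Each siPDL1 library was below each siNC library of its state. The highest condition mean exceeded the lowest by 1.38 times for *ATF4*, the least variable of the 10, and by 3.14 times for *ATF3*, the most variable.

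**Figure D1:**
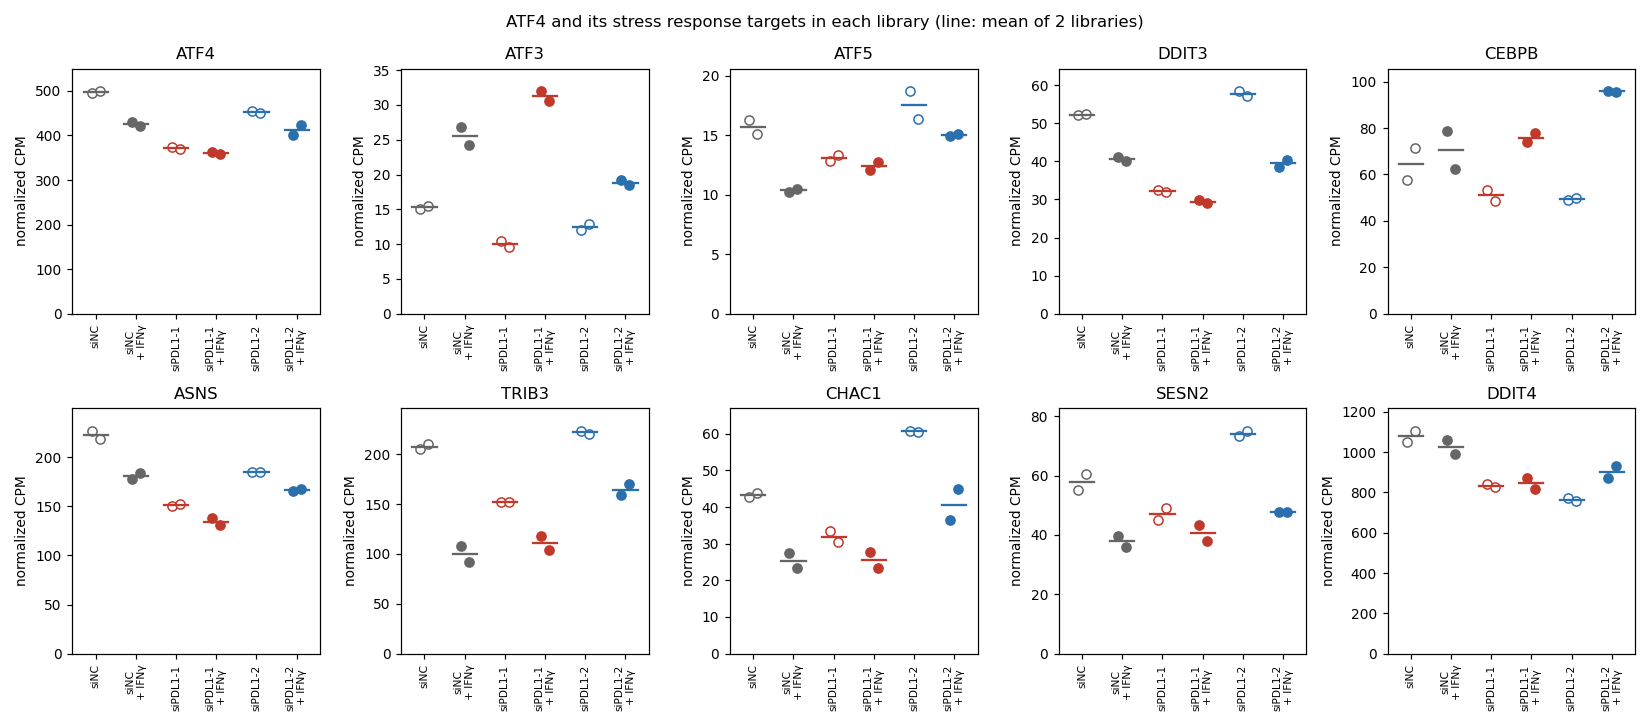
Each panel shows the normalized CPM (y axis, linear from 0) of 1 gene in the 12 libraries, by condition (x axis), with open points for unstimulated and filled points for IFNγ-treated libraries and a line at the mean of 2 libraries. siPDL1-1 points (red) are low in most unstimulated panels, and *ATF3* rises with IFNγ from means of 15.3 to 25.5 CPM with siNC and from 9.96 to 31.3 CPM with siPDL1-1.

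The comparison of siPDL1-1 with siNC in unstimulated cells asked what the siRNA against PD-L1 did before IFNγ. All 10 genes were lower, beside 8399 of all 17982 genes tested. Their median difference was -0.42 on the log2 scale, and that of all genes tested was slightly above 0, at 0.02. A gene is said here to have risen or fallen where its limma FDR (Benjamini-Hochberg over the 17982 genes) was under 0.01, and to be called where the difference was also over 1.5-fold. On that basis 8 of the 10 genes fell, where 8.99% of all genes tested fell and 9.80% rose. *DDIT3* was called, with a difference of -0.68 on the log2(CPM + 1) scale (SE 0.051, FDR = 2.10e-07, lower in 2 of 2 libraries than either siNC library), and 4.00% of all genes tested were called in either direction. The other 7 that fell were smaller in size. *ATF3* fell by 0.57 (FDR = 4.20e-05), *ASNS* by 0.56 (FDR = 1.96e-07), *TRIB3* by 0.44, *CHAC1* by 0.43 (FDR = 0.00905), *ATF4* by 0.42, *DDIT4* by 0.37 and *SESN2* by 0.30 (FDR = 0.00601). *CHAC1* and *SESN2* were thus close to the FDR threshold of 0.01, and the count of 8 includes them. For *ATF5* the difference was -0.25 (FDR = 0.0299) and for *CEBPB* -0.33 (FDR = 0.0522), and neither passed. *ATF3* crossed the fold threshold too without siNC replicate 1 (-0.59) or without siPDL1-1 replicate 1 (-0.63), and in the edgeR and DESeq2 tests, and *ASNS* did so in the edgeR test (-0.60). In bulk RNA, fewer cells that express a gene and less RNA per cell cannot be told apart.

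With the same contrast in siPDL1-2 cells the genes did not move together. Of the 10, 2 rose and 4 fell, beside 16.5% of all genes tested that rose and 11.9% that fell. *CHAC1* rose by 0.48 (SE 0.11, FDR = 0.00316) and *SESN2* by 0.35 (FDR = 0.00122). *DDIT4* fell by 0.49 (FDR = 1.43e-06), *ASNS* by 0.27 (FDR = 1.32e-04), *ATF3* by 0.28 and *ATF4* by 0.14. None of the 10 was called by limma, edgeR or DESeq2, against 6.17% of all genes tested, and 8 had an unadjusted limma p under 0.05, 3 of them higher and 5 lower. The median of the 10 was -0.02 on the log2 scale and that of all genes 0.03. The comparisons of the PD-L1 siRNAs with siNC share the siNC libraries, so their values are only set side by side here.

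The siRNAs against PD-L1 were therefore also compared with each other, without the siNC libraries. In unstimulated cells siPDL1-1 was lower than siPDL1-2 for *CHAC1* by 0.91 on the log2 scale (95% interval -1.14 to -0.67, FDR = 4.69e-05), for *DDIT3* by 0.83 (interval -0.93 to -0.72, FDR = 7.82e-08) and for *SESN2* by 0.65 (interval -0.80 to -0.49, FDR = 1.15e-05). These 3 were called, where 4.35% of all genes tested were. With the FDR alone 8 of the 10 differed, all lower with siPDL1-1, beside 24.1% of all genes. *CEBPB* differed by 0.04 (interval -0.21 to 0.29) and *DDIT4* by 0.12 (interval 0.02 to 0.22), neither past the threshold. The siRNA sequences are not given in the sources used here.

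**Figure D2:**
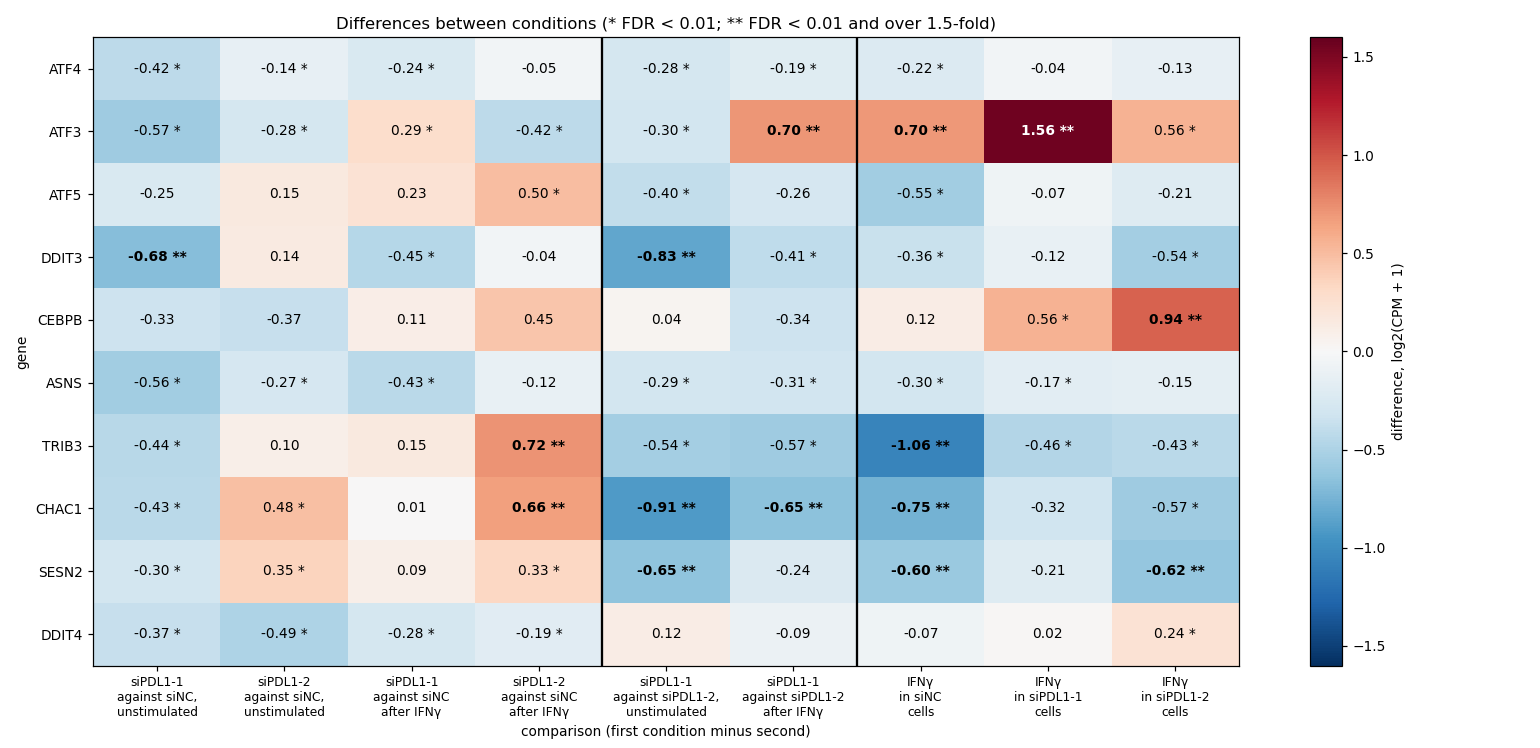
Differences in log2(CPM + 1) for the 10 genes (rows) in the 9 comparisons of a pair of conditions (columns), coloured from blue (lower in the condition named first) to red (higher), with 1 star for an FDR under 0.01 and 2 stars where the difference is also over 1.5-fold. The siPDL1-1 column for unstimulated cells is blue in all 10 rows, from -0.68 for *DDIT3* to -0.25 for *ATF5*, and the *ATF3* row turns red in the 3 IFNγ columns.

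IFNγ in control cells lowered most of the 10 genes. By the FDR 7 fell and 1 rose, beside 9.34% of all genes tested that fell and 17.9% that rose. *TRIB3* fell from 208 ± 3.56 to 99.7 ± 11.2 CPM (mean ± SD, n = 2), by 1.06 on the log2 scale (SE 0.07, FDR = 5.87e-08). *CHAC1* fell by 0.75 (FDR = 1.18e-04) and *SESN2* by 0.60 (FDR = 1.04e-05). *ATF3* was the gene that rose, from 15.3 ± 0.305 to 25.5 ± 1.84 CPM, by 0.70 (FDR = 3.37e-06). These 4 were called, where 8.12% of all genes tested were. *ATF5* fell by 0.55, *DDIT3* by 0.36, *ASNS* by 0.30 and *ATF4* by 0.22, all under 1.5-fold. *DDIT4* (-0.07) and *CEBPB* (0.12) did not pass. *SESN2* was just past the fold threshold of 0.585 and was -0.53 without siNC replicate 2 or without siNC_IFNg replicate 2, with the FDR still under 0.01. *ATF5* passed the fold threshold in the edgeR and DESeq2 tests (-0.62 and -0.63) and without siNC replicate 2 (-0.61).

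In siPDL1-1 cells IFNγ raised *ATF3* from 9.96 ± 0.602 to 31.3 ± 1.06 CPM, a difference of 1.56 on the log2 scale (SE 0.075, FDR = 2.42e-10). It was the single gene of the 10 called there, where 6.87% of all genes tested were called. *CEBPB* also rose, by 0.56 (FDR = 0.00310). *TRIB3* fell by 0.46 (FDR = 1.77e-04) and *ASNS* by 0.17 (FDR = 0.00504). In all 2 rose and 2 fell by the FDR, beside 14.4% and 8.49% of all genes tested. *CHAC1* (-0.32, FDR = 0.0348) and *SESN2* (-0.21, FDR = 0.0369) did not pass. *CEBPB* became the second called gene (0.63) when siPDL1-1 replicate 1 was left out.

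With siPDL1-2, IFNγ raised *CEBPB* from 49.5 ± 0.533 to 95.9 ± 0.28 CPM, by 0.94 (SE 0.11, FDR = 1.44e-04). *SESN2* fell from 74.2 ± 1.35 to 47.9 ± 0.0102 CPM, by 0.62 (FDR = 1.20e-05). These 2 were called, beside 5.27% of all genes tested. *ATF3* rose by 0.56 and *DDIT4* by 0.24, while *CHAC1* fell by 0.57, *DDIT3* by 0.54 and *TRIB3* by 0.43, each with an FDR under 0.01 and under 1.5-fold. Thus 3 rose and 4 fell, where 9.57% of all genes rose and 7.56% fell. *ATF3* passed the fold threshold as well in the edgeR and DESeq2 tests (0.60 in each) and with a pseudocount of 0.1 (0.59). Without siPDL1-2_IFNg replicate 2 *ATF3* and *CHAC1* were past that threshold (0.585 and -0.72), and *ATF3* was so without siPDL1-2 replicate 2 (0.61).

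Whether the siRNA effect depended on IFNγ was tested as an interaction, the IFNγ difference with an siRNA against PD-L1 minus that with siNC. For siPDL1-1 the interaction was positive in sign for all 10 genes, beside 7945 of all 17982 genes tested. It uses the same unstimulated libraries as the siPDL1-1 difference in which all 10 genes were lower. It also shares the siNC libraries with the IFNγ difference in control cells. The 10 signs are therefore not a separate result. The siPDL1-1 interaction was called for *ATF3* (0.86, 95% interval 0.63 to 1.09, FDR = 1.36e-04) and *TRIB3* (0.59, interval 0.38 to 0.81, FDR = 0.00351). Of all genes tested 0.968% were called, and 1.63% passed the FDR alone, which the same 2 members did. For *TRIB3* the difference of siPDL1-1 from siNC was -0.44 before IFNγ and 0.15 after it (FDR = 0.115). The *TRIB3* interaction did not hold when 6 of the libraries were left out in turn (siNC replicate 1 or 2, siNC_IFNg replicate 2, siPDL1-1 replicate 1 or 2, siPDL1-1_IFNg replicate 1), with values from 0.48 to 0.61 and an FDR of up to 0.0228.

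For siPDL1-2 the interaction was called for *CEBPB* (0.82, interval 0.46 to 1.17, FDR = 0.00368) and *TRIB3* (0.63, interval 0.41 to 0.84, FDR = 5.34e-04), where 7.62% of all genes tested were called. *DDIT4* (0.31, FDR = 0.00284) was the third to pass the FDR, which 17.1% of all genes did. *CEBPB* lost its call without either siPDL1-1_IFNg library, either siPDL1-2 library or either siPDL1-2_IFNg library, with a value from 0.80 to 0.83 and an FDR of up to 0.0201, and *TRIB3* dropped under 1.5-fold without siNC_IFNg replicate 2 (0.51) or siPDL1-2_IFNg replicate 2 (0.58). Without siPDL1-2_IFNg replicate 2 neither gene was called by limma.

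**Figure D3:**
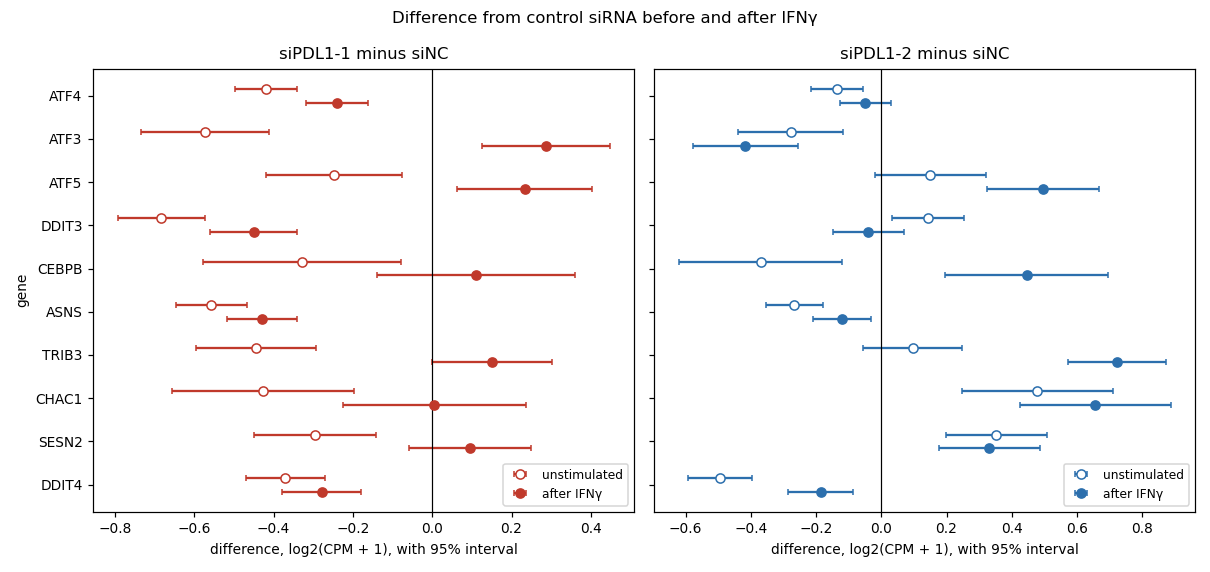
Difference of each siRNA against PD-L1 from siNC (x axis, log2(CPM + 1), with 95% intervals from limma) for the 10 genes (y axis), with open points for unstimulated cells and filled points after IFNγ. With siPDL1-1 the *ATF3* point moves from -0.57 to 0.29, and with siPDL1-2 the *TRIB3* point moves from 0.10 to 0.72.

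After IFNγ, siPDL1-1 cells differed from stimulated siNC cells in 5 of the 10 genes by the FDR, 1 higher and 4 lower, beside 11.6% of all genes tested that were higher and 12.2% that were lower. *DDIT3* fell by 0.45 (FDR = 7.87e-06), *ASNS* by 0.43 (FDR = 1.49e-06), *DDIT4* by 0.28 and *ATF4* by 0.24. *ATF3* rose by 0.29 (FDR = 0.00803). None was called by limma, edgeR or DESeq2, where 5.47% of all genes tested were, and 6 had an unadjusted limma p under 0.05, 2 of them higher and 4 lower. *TRIB3* differed from siNC by 0.15 (interval -4.43e-05 to 0.30), *CHAC1* by 0.01 (interval -0.23 to 0.24) and *SESN2* by 0.09 (interval -0.06 to 0.25). These intervals lie inside a 1.5-fold change in either direction, but they rest on an SE pooled over all 6 conditions. The *CHAC1* SDs were 2.99 (siNC) and 3.15 CPM (siPDL1-1) after IFNγ, against 0.747 and 1.98 CPM before it. For *SESN2* they were 2.65 and 3.86 against 3.84 and 2.93 CPM. Intervals from the stimulated libraries alone were not computed and could be wider.

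These libraries also differed from the rest in a list of 20 type I interferon response genes. Their summed level was between 6111 and 6203 CPM in siPDL1-1 cells after IFNγ, against 685.8 to 711.9 with siNC and 727.6 to 754 with siPDL1-2. In unstimulated cells it was 195.7 to 195.9 CPM with siPDL1-1, 124 to 127.7 with siNC and 116.4 to 116.9 with siPDL1-2. Of the 20 genes, 19 were called higher with siPDL1-1 than with siNC after IFNγ, beside 3.73% of all genes tested, and 12 before it, beside 2.55%. *EIF2AK2*, the interferon-inducible gene of the eIF2α kinase PKR, rose to 765 ± 62.5 CPM in siPDL1-1 cells after IFNγ from 276 ± 2.99 CPM in stimulated siNC cells, by 1.47 on the log2 scale (FDR = 8.04e-11). In the same comparison *ATF4* was at 361 ± 4.62 against 427 ± 6.06 CPM. The part of these differences in the values of the 10 genes was not tested.

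In siPDL1-2 cells after IFNγ, *TRIB3* was higher than in stimulated siNC cells by 0.72 (SE 0.07, FDR = 8.41e-06) and *CHAC1* by 0.66 (SE 0.11, FDR = 6.11e-04). Both were called, where 3.13% of all genes tested were. *ATF5* rose by 0.50 (FDR = 3.33e-04) and *SESN2* by 0.33 (FDR = 0.00300), and *ATF3* fell by 0.42 and *DDIT4* by 0.19. By the FDR 4 rose and 2 fell, beside 8.60% and 9.75% of all genes tested. *CHAC1* dropped under 1.5-fold without siNC_IFNg replicate 2 (0.54) or siPDL1-2_IFNg replicate 2 (0.51), and *CEBPB*, at 0.45 (FDR = 0.0132), was called without siNC_IFNg replicate 1 (0.61).

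Between the siRNAs against PD-L1 after IFNγ, *ATF3* was higher with siPDL1-1 by 0.70 (95% interval 0.54 to 0.86, FDR = 9.40e-06) and *CHAC1* lower by 0.65 (interval -0.88 to -0.42, FDR = 0.00101). These 2 were called, beside 2.23% of all genes tested, and 6 passed the FDR alone, beside 10.5%. *TRIB3* was lower with siPDL1-1 by 0.57 (FDR = 7.04e-05), just under 1.5-fold. It passed the fold threshold without siPDL1-1_IFNg replicate 1 (-0.66) or siPDL1-2_IFNg replicate 1 (-0.62), and *CHAC1* fell under it without siPDL1-1_IFNg replicate 2 (-0.53) or siPDL1-2_IFNg replicate 2 (-0.50). *SESN2* (-0.24, FDR = 0.0329), *ATF5* (-0.26, FDR = 0.0327), *CEBPB* (-0.34, FDR = 0.0645) and *DDIT4* (-0.09, FDR = 0.185) did not pass.

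When the 6 conditions were put in order of the mean level, no 2 neighbours in the order differed by the FDR and the fold threshold together for any of the 10 genes. *ATF4* ran from siNC through siPDL1-2, siNC with IFNγ, siPDL1-2 with IFNγ and siPDL1-1 to siPDL1-1 with IFNγ, and *ASNS* had the same order. *TRIB3* and *CHAC1* shared another order, from siPDL1-2 and siNC through siPDL1-2 with IFNγ, siPDL1-1 and siPDL1-1 with IFNγ to siNC with IFNγ, and *SESN2* and *ATF5* had that order too. By the FDR alone, neighbours of *ATF3* differed at each of the 5 steps, from siPDL1-1 with IFNγ at the top to unstimulated siPDL1-1 at the bottom. For *CEBPB* no step passed even the FDR.

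Over the 12 libraries some of the 10 genes had like profiles, given here as Pearson correlations of log2(CPM + 1) without a test, since libraries of the same condition are not separate points. *ATF4*, *ASNS* and *DDIT3* were correlated with each other at 0.97 (*ATF4* and *ASNS*), 0.92 (*ATF4* and *DDIT3*) and 0.87 (*ASNS* and *DDIT3*). *TRIB3*, *CHAC1*, *SESN2* and *ATF5* formed another set, with correlations from 0.88 (*SESN2* and *ATF5*) to 0.95 (*CHAC1* and *SESN2*). The sets were not separate. *ATF4* was correlated with the genes of the second set at 0.49 to 0.64, *ASNS* at 0.41 to 0.56 and *DDIT3* at 0.65 to 0.81. *DDIT4* was nearest to *ASNS* at 0.57, and *CEBPB* to *ATF3* at 0.68. *ATF3* ran against *TRIB3* at -0.71.

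**Figure D4:**
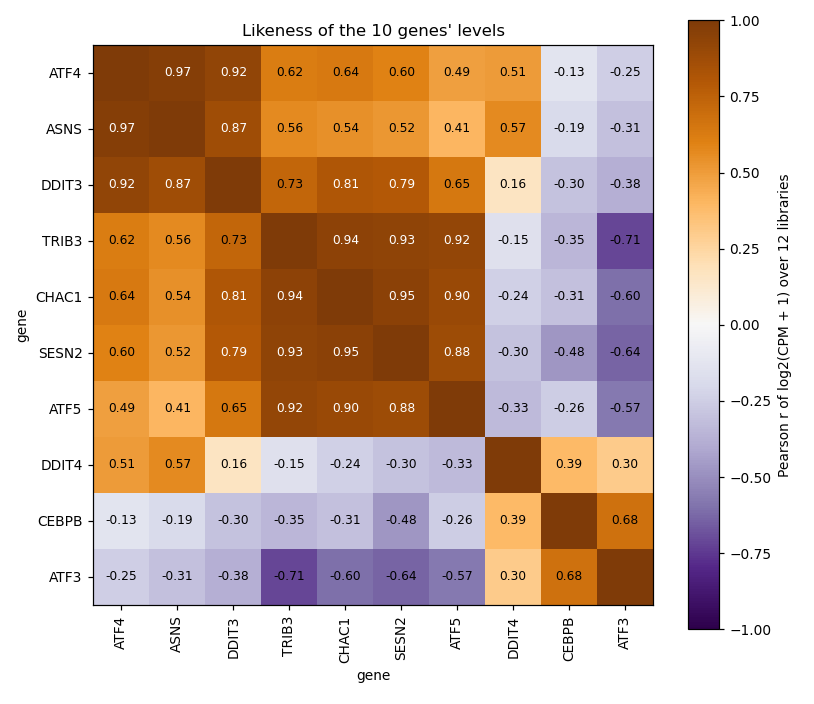
Pearson correlation of log2(CPM + 1) over the 12 libraries for each pair of the 10 genes (rows and columns), from violet (negative) to brown (positive). *ATF4*, *ASNS* and *DDIT3* form a dark block of at least 0.87, *TRIB3*, *CHAC1*, *SESN2* and *ATF5* one of at least 0.88, and *ATF3* is negative with 7 of the other 9 genes.

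For the 4 members that varied most, the genes most like them were looked up among the 11587 genes whose mean reached 5 CPM. The profile of *ATF3* was closest to *TOP1* (0.98), *SLC2A12* (0.97) and *KLF6* (0.97). *CHAC1* was closest to *THSD4* (0.97), *SCNN1A* (0.96) and *CENPS* (0.96), and *DDIT3* to *PPARGC1A* (0.97), *UBE2H* (0.96) and *TARS1* (0.96). *TRIB3* was closest to *PVR* (0.97), *GARS1* (0.97) and *PCK2* (0.96). *PCK2* is on the list of other ATF4 targets, and *GARS1* and *TARS1* are on that of tRNA synthetases.

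Reads were counted on both strands, so a gene that overlaps another can share its reads. *ATF5* (mean 14.01 CPM) overlaps *NUP62* (105 CPM) and *IL4I1* (2.30 CPM) on the other strand, and *IL4I1* rose by 2.61 with siPDL1-1 against siNC after IFNγ, where *ATF5* differed by 0.23. *DDIT3* (42.0 CPM) overlaps *MARS1* (307 CPM) and *MBD6* (45.5 CPM), which differed by -0.18 and -0.30 with siPDL1-1 in unstimulated cells where *DDIT3* fell by 0.68. *ASNS* (174 CPM) overlaps AC079781.5 (17.1 CPM) on its own strand, which rose by 0.61 with siPDL1-1 after IFNγ where *ASNS* fell by 0.43. The antisense genes at *DDIT4* (0.721 CPM) and *CEBPB* (1.01 CPM) were low. The part of overlapping reads in these differences was not tested, and the values of *ATF5* and *DDIT3* are uncertain to that extent.

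Related gene lists are given by their counts, to be read against the shares of all genes tested. In unstimulated cells these shares were 9.80% higher and 8.99% lower with siPDL1-1 and 16.5% higher and 11.9% lower with siPDL1-2. After IFNγ they were 11.6% and 12.2% with siPDL1-1 and 8.60% and 9.75% with siPDL1-2. Of 22 other ATF4 targets, 20 were tested, and with siPDL1-1 in unstimulated cells 3 rose and 8 fell (9.80% and 8.99% of all genes), with a median of -0.14 on the log2 scale. *BBC3*, which encodes the pro-apoptotic protein PUMA, fell by 0.84 (FDR = 1.21e-05) and *PPP1R15A*, the stress-induced subunit that directs dephosphorylation of eIF2α, by 0.59 (FDR = 4.38e-06), while *ERO1A*, an oxidase of the endoplasmic reticulum, rose by 0.73 (FDR = 2.56e-07). With siPDL1-2 in unstimulated cells 6 rose and 4 fell (16.5% and 11.9% of all genes), with *ERO1A* higher by 1.00 and *BBC3* lower (-0.64), and the median was 0.12. After IFNγ 6 rose and 5 fell with siPDL1-1, and 8 rose and 4 fell with siPDL1-2. *GDF15*, a stress-induced secreted factor, rose there by 0.70 and 0.64 with the respective siRNAs, and *PMAIP1*, which encodes NOXA, fell by 0.78 with siPDL1-2.

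Of the 10 genes on a list of amino acid and one-carbon synthesis, all tested, 2 rose and 1 fell with siPDL1-1 in unstimulated cells, and 5 rose and 2 fell with siPDL1-2, where 9.80% and 8.99%, and 16.5% and 11.9%, of all genes did so. The single gene that fell with siPDL1-1 is near the share of all genes. *PSAT1*, which makes phosphoserine on the way to serine, rose from 62.4 ± 2.17 to 169.9 ± 1.89 CPM with siPDL1-1 and to 218 ± 2.05 CPM with siPDL1-2, by 1.43 and 1.79 on the log2 scale (FDR = 2.51e-11 and 1.13e-12). After IFNγ the differences were 1.56 and 1.69. *ALDH1L2*, a mitochondrial folate enzyme, rose by 0.92 with siPDL1-2 in unstimulated cells and by 0.76 and 0.75 with siPDL1-1 and siPDL1-2 after IFNγ. The medians of the list lay between -0.07 and 0.15 in these 4 comparisons.

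Of 9 amino acid transporters, 4 fell with siPDL1-1 in unstimulated cells and the other 5 did not pass, and 2 rose and 2 fell with siPDL1-2. After IFNγ 2 rose and 1 fell with siPDL1-1, and 5 rose and 2 fell with siPDL1-2. *SLC1A4*, a carrier of neutral amino acids, rose by 0.67 and 0.76 in the respective comparisons. IFNγ lowered 7 of the 9 in siNC cells, 6 in siPDL1-1 cells and 6 in siPDL1-2 cells, where 9.34%, 8.49% and 7.56% of all genes tested fell. Of 20 cytosolic tRNA synthetases, 1 rose and 6 fell with siPDL1-1 and 2 rose and 6 fell with siPDL1-2 in unstimulated cells, beside 9.80% and 8.99% of all genes for siPDL1-1 and 16.5% and 11.9% for siPDL1-2. *FARSB*, a subunit of phenylalanyl-tRNA synthetase, fell in all 4 comparisons with siNC, by 0.72 and 0.61 before IFNγ and by 0.79 and 0.71 after it.

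Upstream of ATF4, 16 genes were tested, those of the eIF2α kinases, eIF2, eIF2B and the phosphatase together with *GCN1*, *IMPACT*, *DELE1* and *OMA1*. With siPDL1-1 in unstimulated cells 4 fell and the other 12 did not pass, and with siPDL1-2 3 rose and 4 fell. Of all genes tested 8.99% fell with siPDL1-1, and 16.5% rose and 11.9% fell with siPDL1-2, so that the 3 of 16 that rose are near the share of all genes. After IFNγ 1 rose and 4 fell with siPDL1-1, and 2 fell with siPDL1-2. *EIF2AK2* with siPDL1-1 after IFNγ and *PPP1R15A* with siPDL1-1 before it, both given above, were the genes called in these 4 comparisons. Another list held 21 genes of the other branches of the unfolded protein response (XBP1 and ATF6), with *XBP1*, *ATF6* and *ERN1* themselves among the targets. In unstimulated cells it gave 3 higher and 5 lower with siPDL1-1, to be set beside 9.80% and 8.99% of all genes. With siPDL1-2 it gave 12 higher and 2 lower, beside 16.5% and 11.9%. *HERPUD1*, which acts in degradation of proteins from the endoplasmic reticulum, fell by 0.61 with siPDL1-1, and *DNAJB9*, a co-chaperone, rose by 0.77 with siPDL1-2. After IFNγ the counts were 1 higher and 8 lower with siPDL1-1 and 10 higher and 4 lower with siPDL1-2, where *SDF2L1*, another chaperone component, rose by 0.62.

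Among 22 tested bZIP genes that can pair with the factors above, 2 rose and 1 fell with siPDL1-1 and 7 rose and 4 fell with siPDL1-2 in unstimulated cells. The counts for siPDL1-1 do not exceed the shares of all genes (9.80% and 8.99%), and those for siPDL1-2 stand beside 16.5% and 11.9%. *MAFK*, a small MAF protein, fell by 0.65 and 0.62. After IFNγ 5 rose and 1 fell with siPDL1-1, with *BATF2*, an interferon-inducible member, higher by 1.29 (FDR = 1.34e-07) and *CEBPA* by 0.61. With siPDL1-2 5 rose and 2 fell. *CEBPA* was higher there by 1.00 and *JUND*, an AP-1 subunit, by 0.90. The medians of the bZIP list were between -0.03 and 0.11.

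**Figure D5:**
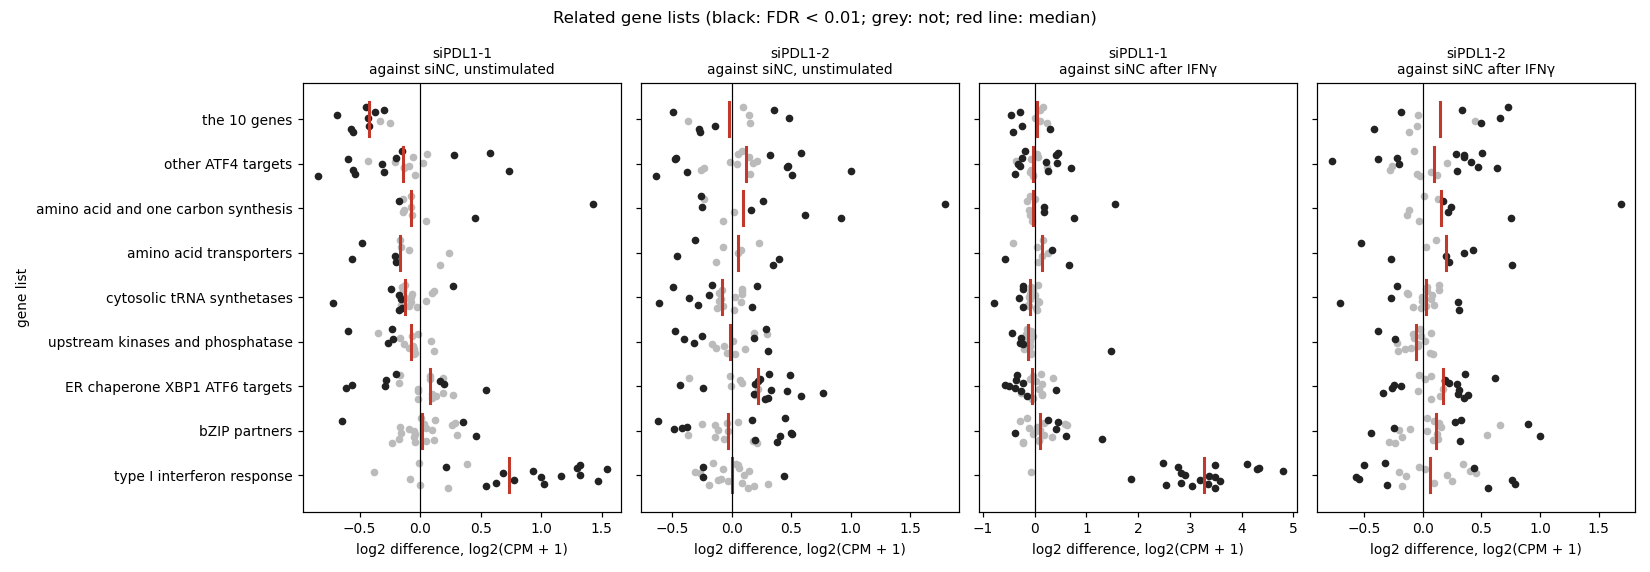
Differences of each siRNA against PD-L1 from siNC (x axis, log2(CPM + 1), with its own range in each panel) for the 10 genes and 8 related lists (y axis), 1 point per gene, black where the FDR is under 0.01 and grey elsewhere, with a red line at the median of the list. In the first panel the median of the 10 genes is at -0.42 and that of the other ATF4 targets at -0.14, while type I interferon response genes have a median of 0.73, and of 3.28 in the third panel.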

How the data were processed

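RNA-seq was carried out on polyA RNA of U251 cells, 12 libraries in 6 conditions with 2 libraries each, grouped by the sample labels. Per the methods, the authors trimmed and mapped the reads in CLC Genomics Workbench to GRCh38 with the Ensembl annotation, counted them on both strands with broken pairs ignored, and normalized the counts. The deposited signal is the authors' normalized CPM, in which 100% of the values of each library were multiples of 1 read to within 0.01 read (0.001% of the value above 1000 reads), so that reads were recovered (17101069 to 55657393 on genes). The authors' scaling equalled TMM factors of 0.959 to 1.036.

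Differences were tested in limma 3.58.1 with trend and robust estimates on log2(CPM + 1), in 1 fit of all 12 libraries over the 17982 genes that passed filterByExpr (minimum count 10, minimum total 15) of edgeR 4.0.16. The members and lists were chosen with earlier results of these data known. From each related list at most 2 genes up and 2 down per comparison with siNC were named, the largest called ones whose mean reached 1 CPM, with libraries that did not overlap. Alternatives were the edgeR quasi-likelihood test, DESeq2 1.42.0, other scalings, pseudocounts, filters and thresholds, and leaving out each library. On simulated counts for siPDL1-1 against siNC, limma found 200 of 200 genes that had been given a log2 change of 1.5, and 4 others. The changed genes were all above 5 CPM on average. Changes as small as those of the 10 genes in this comparison were not simulated. Replicates of 1 condition differed by more than sampling noise.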

Additional observations from a re-analysis of the deposited data

Results flagged for a closer look

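The difference between an siRNA against PD-L1 and siNC itself differed between unstimulated and IFNγ-treated cells for 3 of the 10 genes, by the interaction term in limma, where 0.968% of all genes tested were called for siPDL1-1 and 7.62% for siPDL1-2. For *ATF3* the interaction with siPDL1-1 was 0.86 on the log2 scale, from a lower level than siNC before IFNγ to a higher level after it, in 2 of 2 libraries each time. For *TRIB3* it was 0.59 with siPDL1-1 and 0.63 with siPDL1-2, which share the siNC libraries, and the call with siPDL1-1 was lost when any of 6 single libraries was left out (FDR up to 0.0228). For *CEBPB* it was 0.82 with siPDL1-2, where the siNC libraries of *CEBPB* were widely spaced in either state, and this call too was lost without any of 6 single libraries (FDR up to 0.0201).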

How the results depend on the processing

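Across 2180 values of single genes under the alternatives, 16 changed direction, 21 no longer passed and 26 newly passed. None of those that changed direction was called under either setting. With 1 library left out, *CHAC1* ran from -0.116 to 0.127, *SESN2* from -0.000144 to 0.189 and *CEBPB* from -0.0577 to 0.278 with siPDL1-1 against siNC after IFNγ, *CEBPB* from -0.02305 to 0.108 between the siRNAs against PD-L1 in unstimulated cells and from -0.0445 to 0.291 for IFNγ in siNC cells, *DDIT4* from -0.0305 to 0.0685 for IFNγ in siPDL1-1 cells, and *SESN2* from -0.0911 to 0.0481 for the siPDL1-2 interaction. That interaction was 0.0201 with DESeq2 size factors, 0.00421 with plain CPM, 0.0202 with edgeR and 0.0262 with the DESeq2 Wald test. With plain CPM *DDIT4* was -0.053 for IFNγ in siPDL1-1 cells and *DDIT3* 0.00436 for siPDL1-2 against siNC after IFNγ. The count of the 10 genes called moved by over 1.5 times as follows. With siPDL1-1 in unstimulated cells it was 1, but 2 with a pseudocount of 0.1, DESeq2 size factors or the DESeq2 Wald test and 3 with edgeR. For IFNγ in siPDL1-2 cells it was 2, and 4 with plain CPM. For the interaction of siPDL1-1 with IFNγ it was 2, and 1 without the filter on low reads. Without the fold threshold the counts against siNC were 8 (siPDL1-1) and 6 (siPDL1-2) in unstimulated cells and 5 and 6 after IFNγ. Between the siRNAs against PD-L1 they were 8 and 6, and for IFNγ 8 (siNC), 4 (siPDL1-1) and 7 (siPDL1-2). Leaving out 1 library gave 1 to 2 genes for siPDL1-1 against siNC, 1 to 3 for siPDL1-2 against siNC after IFNγ and for siPDL1-1 against siPDL1-2 after IFNγ, 1 to 2 for IFNγ in siPDL1-1 cells, 2 to 4 for IFNγ in siPDL1-2 cells, 1 to 2 for the siPDL1-1 interaction and 0 to 2 for that of siPDL1-2. The cause was not tested. Correlations of replicate differences between conditions ran from -0.299 to 0.363 (4 of 15 over 0.1), which cannot decide whether replicate numbers pair the libraries. With a replicate block the counts were 1, 0, 0 and 2 against siNC, with no call count changed. The interactions could not be fitted from the libraries of 1 state. Over all genes tested, the counts called with and without the fold threshold were 720 and 3379, 1110 and 5107, 984 and 4277, and 562 and 3300 in the comparisons with siNC (unstimulated siPDL1-1 and siPDL1-2, then after IFNγ), 783 and 4338, then 401 and 1882, between the siRNAs against PD-L1, 1460 and 4901, 1236 and 4122, and 947 and 3080 for IFNγ (siNC, siPDL1-1, siPDL1-2), and 174 and 293, then 1370 and 3067, for the interactions. Without siPDL1-2_IFNg replicate 2 the count of 1370 was 888. With 2 libraries a condition, the precision of each difference is limited to its interval.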
